A study of Mus musculus with 16 samples.

Results

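The genes described here are 56 genes of the lysosome, chosen by symbol from the 55423 rows of the count table and matched by their Ensembl identifiers. They are 12 cathepsins, 18 other hydrolases and soluble lysosomal proteins, 6 membrane proteins, 17 subunits or accessory proteins of the vacuolar ATPase (V-ATPase) and 3 members of the TFEB family of transcription factors. All 56 were among the 21085 genes that passed the count filter and were tested. A call further required a mean normalized count over 100 per lane, which 53 of them had. Ctsk, Mitf and Atp6v0d2 did not, and could not be called whatever their fold change.

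Lysosomes are acidic organelles in which macrophages break down what they take up. The V-ATPase, built from a V1 sector that hydrolyses ATP and a membrane-spanning V0 sector, pumps protons into the organelle, and cathepsins and other hydrolases work at the low pH that results. Membrane glycoproteins such as LAMP1 and LAMP2 line the organelle, and TFEB family members are basic helix-loop-helix factors known to bind E-box elements in the promoters of lysosomal genes. Sub-capsular sinus macrophages (SSMs) meet particulate material in lymph as it enters the node and are known for low degradative capacity, whereas medullary sinus macrophages (MSMs) are strongly phagocytic.

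SSMs and MSMs were sorted from tumor-draining (tdLN) and non-draining (ndLN) lymph nodes of C57B/6 male mice 2 weeks after 500000 cells of MOC2, a chemically induced squamous cell carcinoma line, had been placed intradermally in the flank. Both subsets were gated as CD45+ CD3- B220- Ly6G- CD11b+ CD169+, SSMs as CD11c- with low side scatter and MSMs as CD11c+ with high side scatter. Each library came from the nodes of 2 mice, 2 nodes for tdLN and 6 for ndLN (contralateral inguinal, axillary and brachial), and there were 2 libraries, called pool 1 and pool 2 here after the number in their labels, in each of the 4 groups. The study states that each of its pools gave both subsets from both kinds of node. Libraries of different groups may therefore come from the same mice. Every mouse carried a tumor, so that the ndLN groups are distant nodes of tumor-bearing mice and not nodes of tumor-free mice, and the age of the mice is not given in the sources used here. The difference between tdLN and ndLN cannot be told apart from the difference between the node sites pooled.

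The 8 libraries held between 42972328 and 48130352 counts each, so that 3 counts correspond to at most 0.0698 CPM (the count scaled to the library total). Levels below are TMM-scaled CPM from the sum of the 2 sequencing lanes of a library. Siglec1, the gene of CD169, stood at 8.47 to 15.1 CPM in SSMs from ndLN, 59.2 to 70 CPM in SSMs from tdLN, 0.795 to 1.63 CPM in MSMs from ndLN and 5.64 to 5.96 CPM in MSMs from tdLN. The transcript of this sorting marker was thus low in MSMs. Itgax, the gene of CD11c, was higher in MSMs than in SSMs in both nodes, and Itgam, the gene of CD11b, was 5.9-fold and 6.3-fold higher in SSMs in ndLN and tdLN. Markers of other cells were present in SSM libraries, with natural killer and cytotoxic markers summing to between 2127 and 4101 CPM and basophil and mast cell markers to between 429 and 3653 CPM.

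TFEB family factors bind the E-box CACGTG and its extended form TCACGTGA, both of which read the same on either strand, and promoters were therefore searched for these letters. RefSeq promoter sequences on GRCm38.p6, running from 250 bases before to 50 bases after a start site, were found for 45 of the 56 genes. The E-box was present in 14 of these 45 genes (31.1%) and in 8.09% of the 27025 genes with a promoter sequence. The extended form, which contains the E-box, was present in 7 of the 45 (15.6%) and in 1.12% of all genes. Lamp1 had 4 E-boxes within the 61 bases before its start site. Among the 18 genes with a promoter sequence that rose in SSMs from tdLN (below), 5 had an E-box (27.8%), compared with 9 of the other 27 (33.3%), a difference that carries no test. None of the 3 TFEB family genes had one. A match of letters is a description of the sequence and not evidence of binding. The stretches around the E-boxes of the 5 genes that rose, and of Mcoln1 and Ctsd (the E-box nearer its start), which did not, are given here on the strand of the gene, 5′ to 3′ and ending at the start site at the latest, with every CACGTG in capitals.
Lamp1, chr8:13159080-13159160, plus strand: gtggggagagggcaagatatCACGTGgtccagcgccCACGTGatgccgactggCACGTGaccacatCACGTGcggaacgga
Ctsa, chr2:164833741-164833772, plus strand: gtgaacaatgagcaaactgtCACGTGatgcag
Lgmn, chr12:102439116-102439161, minus strand: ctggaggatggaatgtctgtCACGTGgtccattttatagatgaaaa
Atp6v0b, chr4:117887330-117887385, minus strand: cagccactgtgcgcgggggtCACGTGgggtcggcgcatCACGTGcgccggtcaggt
Atp6v1a, chr16:44139365-44139410, minus strand: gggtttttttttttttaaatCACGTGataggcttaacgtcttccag
Ctsd, chr7:142387900-142387945, minus strand: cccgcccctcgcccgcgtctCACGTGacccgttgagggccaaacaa
Mcoln1, chr8:3500428-3500499, plus strand: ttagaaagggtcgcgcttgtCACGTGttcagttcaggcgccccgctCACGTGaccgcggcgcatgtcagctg

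Lysosomal transcripts made up a larger part of the library in SSMs from tdLN than in any other group. The 56 genes took 2.63% and 1.98% of all counts in SSMs from ndLN, 5.03% and 4.09% in SSMs from tdLN, 3.26% and 3.32% in MSMs from ndLN, and 3.55% and 3.25% in MSMs from tdLN. The SSM groups did not overlap, and the MSM libraries lay between them. Lyz2, a lysozyme, and Psap, the precursor of the saposins that aid sphingolipid breakdown, had the highest mean levels of the 56 genes per kilobase of exon in SSMs from ndLN and in both MSM groups, and Lyz2, Ctss and Psap in SSMs from tdLN. Without Lyz2 and Psap the shares were 1.45% and 1.25% in SSMs from ndLN, 2.57% and 2.33% in SSMs from tdLN, and 1.94% to 2.09% in the 4 MSM libraries.

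**Figure D1:**
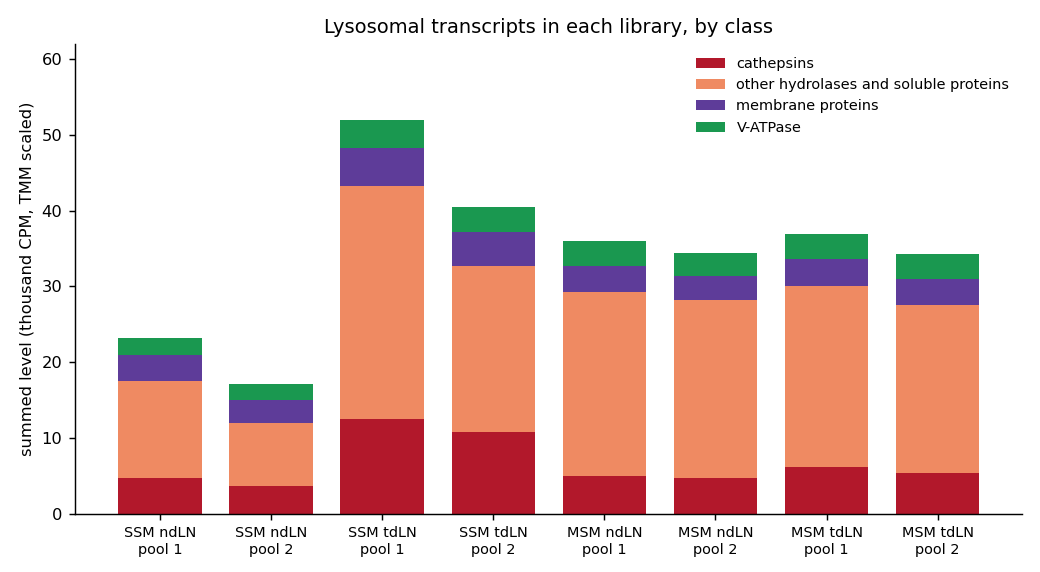
Summed TMM-scaled CPM of the lysosomal genes in each of the 8 libraries, with 1 bar per library divided into 4 classes (the TFEB family, at most 81.3 CPM, is too low to show). The sum is 17174 and 23234 CPM in SSMs from ndLN, 40601 and 52004 CPM in SSMs from tdLN, and between 34388 and 36994 CPM in the MSM libraries.

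The first comparison set SSMs from tdLN against SSMs from ndLN. At an adjusted p-value under 0.01 (edgeR's quasi-likelihood test), 22 of the 56 genes rose in SSMs from tdLN compared with ndLN and 0 fell. Of all genes over the mean count cut-off, 4.19% rose and 2.21% fell. The count of 22 became 0 when only the 2 groups compared were fitted, and 0 with a Holm adjustment. Of the 56 genes, 42 had an unadjusted p-value under 0.05 in either direction, compared with 37.7% of all genes over the cut-off. A DESeq2 Wald test called 33 higher and 1 lower, against 11% and 8.35% of all genes. The median log2 fold change was 0.77 over the 56 genes and 0.05 over all 9996 genes above the mean count cut-off. Both tdLN libraries were above both ndLN libraries for 48 of the 56 genes, compared with 37.4% of all genes. Fewer cells of a type and less RNA per cell cannot be told apart in these bulk libraries. With 2 libraries in a group the count depended on every library. It was 0 without either library of SSMs from tdLN (pool 1 or pool 2), 1 without pool 2 of SSMs from ndLN, 11 without pool 1 of SSMs from ndLN, 11 without either library of MSMs from tdLN and 14 without either library of MSMs from ndLN, whereas the median log2 fold change of the 56 genes stayed between 0.71 and 0.9 under all the alternatives run.

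Cysteine cathepsins accounted for the largest changes among the proteases. In all, 6 of the 12 cathepsins rose in SSMs from tdLN, namely Ctsc, Ctss, Ctsh, Ctsz, Ctsa and Ctsb, by between 1.26 (Ctsb) and 1.96 (Ctsc) on the log2 scale. Ctsc, on chromosome 7 at 88278085 to 88310888, encodes dipeptidyl peptidase I, which activates granule serine proteases. It stood at 901 and 596 CPM in SSMs from ndLN, 3204 and 2567 CPM in SSMs from tdLN, 969 and 907 CPM in MSMs from ndLN, and 927 and 730 CPM in MSMs from tdLN. The SSM libraries from tdLN lay above the other 6, and the rise in SSMs was 3.9-fold (log2 fold change 1.96 ± 0.14 SE, adjusted p = 0.0011). Ctss, the protease that trims the invariant chain for antigen presentation on MHC class II, stood at 1022 and 659 CPM in SSMs from ndLN, 3325 and 2826 CPM in SSMs from tdLN, 1198 and 1154 CPM in MSMs from ndLN, and 1629 and 1566 CPM in MSMs from tdLN. Ctss rose 3.7-fold in SSMs (1.89 ± 0.16 SE, adjusted p = 0.00157). Ctsh, an aminopeptidase, went from 257 and 215 CPM to 813 and 737 CPM (1.72 ± 0.12 SE, adjusted p = 0.0011), and both ndLN libraries of SSMs lay below the 4 MSM libraries, which were between 532 and 734 CPM.

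The other 6 cathepsins did not pass in SSMs. Ctsl, another cysteine cathepsin, had a log2 fold change as large as those that passed (1.84 ± 0.34 SE, adjusted p = 0.0165), with 50.5 and 38.1 CPM in ndLN and 175 and 141 CPM in tdLN. Ctsf and Ctsw were lower in both tdLN libraries, Ctsf with 20.6 and 28.4 CPM in ndLN against 8.79 and 4.95 CPM in tdLN (-1.84 ± 0.41 SE, adjusted p = 0.0324) and Ctsw with 308 and 265 CPM against 165 and 204 CPM (-0.65 ± 0.18 SE, adjusted p = 0.0659). Ctsd, the aspartic protease of the lysosome, overlapped between nodes at 264 to 282 CPM and 262 to 267 CPM. Ctso had a log2 fold change of 0.21 and Ctsk was at most 0.83 CPM in SSMs. A share of 32.4% of the 50-base windows of Ctsd transcripts is also found in the annotated gene Gm49369, so that counting could have split its reads.

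Among the other hydrolases and soluble proteins, 9 of 18 rose in SSMs from tdLN. They were Asah1, Grn, Lgmn, Psap, Ppt1, Lyz2, Gusb, Hexa and Man2b1, with log2 fold changes between 0.75 (Man2b1) and 1.78 (Asah1 and Grn). Asah1, on chromosome 8 at 41340197 to 41374773, encodes acid ceramidase and stood at 161 and 137 CPM in SSMs from ndLN, 571 and 455 CPM in SSMs from tdLN, 483 and 425 CPM in MSMs from ndLN, and 458 and 475 CPM in MSMs from tdLN. The 2 ndLN libraries of SSMs were the only ones below 425 CPM, and the rise was 3.44-fold (1.78 ± 0.13 SE, adjusted p = 0.00113). Grn, which encodes the precursor of the granulins, went from 385 and 213 CPM to 1043 and 955 CPM (1.78 ± 0.19 SE, adjusted p = 0.00263). Lgmn, the asparaginyl endopeptidase that matures several cathepsins, went from 137 and 94.4 CPM to 417 and 343 CPM (1.72 ± 0.19 SE, adjusted p = 0.00275), above the 75 to 134 CPM of the 4 MSM libraries.

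The 2 lysozymes, which cleave bacterial cell walls, differed in level and in their place among the groups. Lyz2 stood at 7940 and 5044 CPM in SSMs from ndLN, 19309 and 12932 CPM in SSMs from tdLN, and 3998 to 4636 CPM in MSMs. It rose in SSMs from tdLN (1.32 ± 0.21 SE, adjusted p = 0.00983), a call that was lost in 14 of the 20 alternatives run. Lyz1 stood at 57.2 and 86.5 CPM in SSMs from ndLN, 178 and 125 CPM in SSMs from tdLN, 232 and 179 CPM in MSMs from ndLN, and 174 and 163 CPM in MSMs from tdLN, and did not pass (1.06 ± 0.26 SE, adjusted p = 0.0433). Of the 50-base windows of Lyz1 transcripts, 16.1% also occur in Lyz2, and of those of Lyz2 15.4% occur in Lyz1. The division of reads between the 2 genes is uncertain for these windows. Npc2, Lyz1, Neu1, Gla, Lipa, Smpd1, Tpp1, Gaa and Glb1 were the members of this class that did not pass, with log2 fold changes between -0.06 (Glb1) and 1.22 (Npc2).

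Of the 6 membrane proteins, the 2 LAMP glycoproteins rose in SSMs. Lamp1 stood at 508 and 482 CPM in SSMs from ndLN, 1139 and 1032 CPM in SSMs from tdLN, 337 and 342 CPM in MSMs from ndLN, and 573 and 541 CPM in MSMs from tdLN. The increase in SSMs was 2.19-fold (1.13 ± 0.11 SE, adjusted p = 0.00197). Lamp2 stood at 328 and 202 CPM in SSMs from ndLN, 731 and 549 CPM in SSMs from tdLN, 223 and 210 CPM in MSMs from ndLN, and 310 and 245 CPM in MSMs from tdLN, a 2.44-fold increase in SSMs (1.29 ± 0.16 SE, adjusted p = 0.00409). The receptor of glucocerebrosidase (Scarb2), the cholesterol exporter Npc1, the calcium channel Mcoln1 and Laptm5 did not pass, with log2 fold changes between 0.20 (Mcoln1) and 0.54 (Scarb2). Laptm5 had between 2280 and 2904 CPM in all 8 libraries.

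Of the 17 V-ATPase genes, 5 rose in SSMs from tdLN. They were Atp6v0a1, Atp6v0c and Atp6v0b of the 7 V0 genes, and the catalytic subunit Atp6v1a and its partner Atp6v1b2 of the 8 V1 genes. Neither of the 2 accessory genes passed. Atp6v0a1, an isoform of the large membrane subunit, stood at 16.3 and 19.3 CPM in SSMs from ndLN, 79 and 50.8 CPM in SSMs from tdLN, 44.3 and 28.5 CPM in MSMs from ndLN, and 64.2 and 60.4 CPM in MSMs from tdLN (1.83 ± 0.25 SE in SSMs, adjusted p = 0.0058). Atp6v0c, the proton-carrying ring subunit, went from 161 and 119 CPM to 355 and 322 CPM (1.28 ± 0.17 SE, adjusted p = 0.00494), above the 125 to 154 CPM of the MSM libraries. A share of 10.8% of its 50-base windows is found in other genes, mainly in its pseudogenes. Atp6v1a went from 93.5 and 106 CPM to 212 and 195 CPM (1.03 ± 0.15 SE, adjusted p = 0.00664). All 8 V1 genes had both tdLN libraries above both ndLN libraries, with log2 fold changes between 0.20 (Atp6v1h) and 1.03 (Atp6v1a). Atp6v0d2 was at most 1.1 CPM in any library.

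None of the 3 TFEB family genes passed in SSMs. Tfec, a family member expressed in macrophages, on chromosome 6 at 16833373 to 16898441, stood at 3.75 and 1.01 CPM in SSMs from ndLN, 14.4 and 14.6 CPM in SSMs from tdLN, 0.667 and 1.45 CPM in MSMs from ndLN, and 2.33 and 2.29 CPM in MSMs from tdLN. Both libraries of SSMs from tdLN lay above the other 6, and the log2 fold change in SSMs was the largest among the 56 genes but missed the threshold (2.61 ± 0.45 SE, adjusted p = 0.0137). Tfeb stood at 28.3 and 32.2 CPM in SSMs from ndLN, 62.3 and 61 CPM in SSMs from tdLN, 40.8 and 26.5 CPM in MSMs from ndLN, and 48 and 46.1 CPM in MSMs from tdLN (1.02 ± 0.21 SE in SSMs, adjusted p = 0.0251). Mitf overlapped between the nodes in SSMs, with 5.57 and 2.71 CPM in ndLN and 3.92 and 5.71 CPM in tdLN, and had 0.615 and 1.67 CPM in MSMs from ndLN and 2.71 and 2.97 CPM in MSMs from tdLN.

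**Figure D2:**
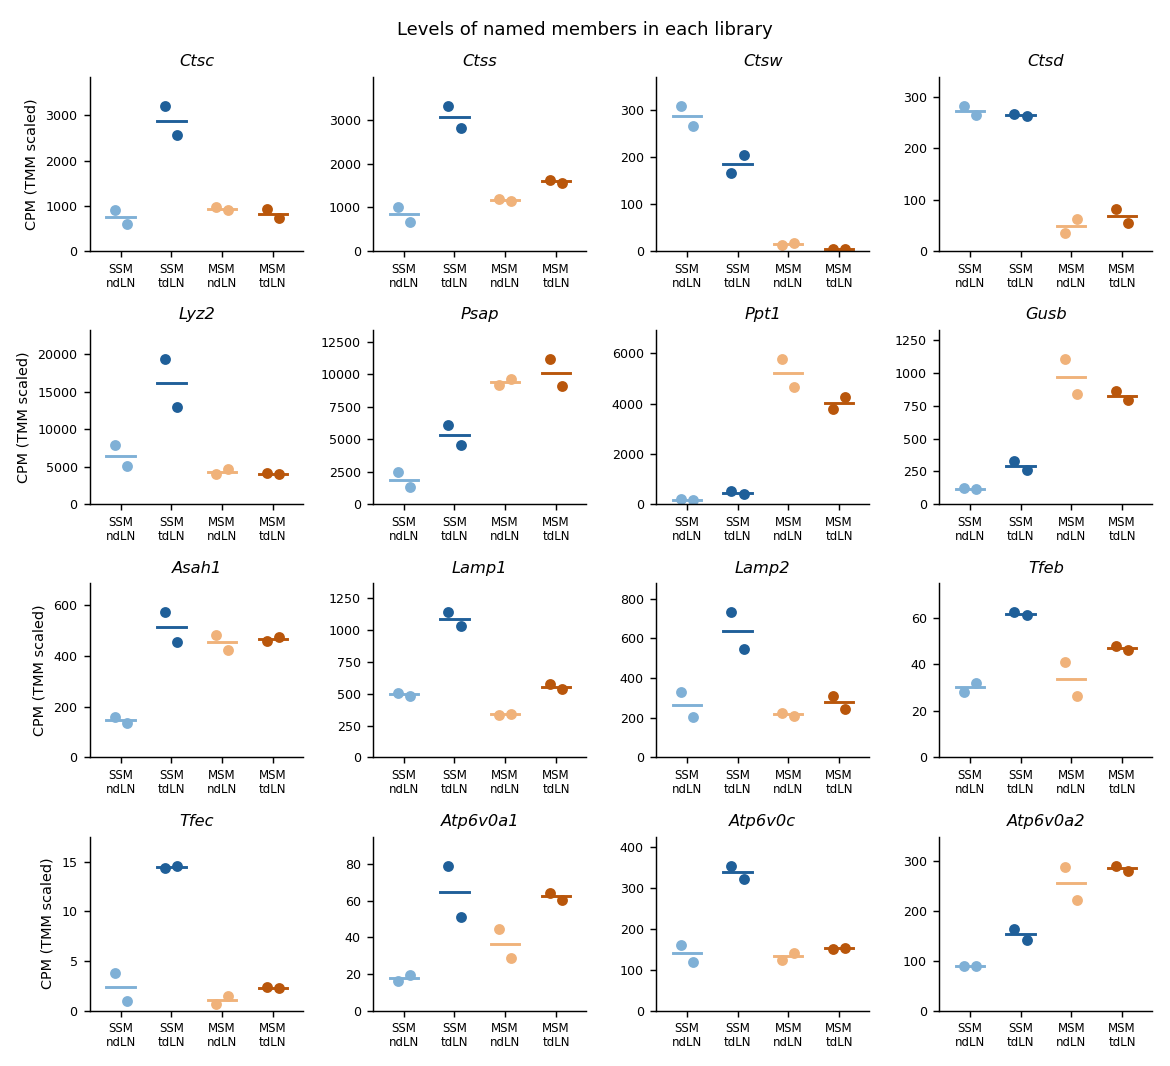
TMM-scaled CPM of 16 named genes, with 1 point per library and a line at the mean of the 2 libraries of a group, on linear axes that start at 0. Ctsc, Lyz2, Lamp1 and Tfec have their 2 highest libraries in SSMs from tdLN, Ppt1, Psap and Gusb in MSMs, and Ctsw in SSMs from ndLN.

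The same comparison in MSMs gave 0 calls among the 56 genes by edgeR's quasi-likelihood test, against 0.05% of all genes called in either direction. At an unadjusted p-value under 0.05 there were 15, against 18.2% of all genes, and a DESeq2 Wald test called 2, against 4.98%. The median log2 fold change was 0.12 over the 56 genes and 0.01 over all genes. Both tdLN libraries were above both ndLN libraries for 22 of the 56 genes, compared with 25% of all genes. Lamp1 had the lowest adjusted p-value but one (0.71 ± 0.11 SE, adjusted p = 0.0495), after Ctsw, which was lower in tdLN (-1.69 ± 0.25 SE, adjusted p = 0.0464). The numbers of libraries were the same as for SSMs, and the absence of calls does not show that lysosomal genes were unchanged in MSMs.

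Whether SSMs and MSMs differed in their response was tested directly by the interaction of subset and node. By edgeR's quasi-likelihood test 0 of the 56 genes passed, against 0.08% of all genes in either direction. At an unadjusted p-value under 0.05 there were 35, against 20.8% of all genes, and a DESeq2 Wald test called 20, against 6.79%. At an adjusted p-value under 0.05, 11 genes passed, against 2.15% of all genes, each with the more positive change in SSMs. These were Ctsc, Ctsb, Ctsh, Ctss, Ctsz, Ppt1, Gusb, Asah1, Hexa, Man2b1 and Atp6ap2. Ctsc had the lowest adjusted p-value, with an interaction of 2.16 ± 0.19 SE on the log2 scale (adjusted p = 0.011). The median interaction was 0.81 over the 56 genes and 0.08 over all genes.

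**Figure D3:**
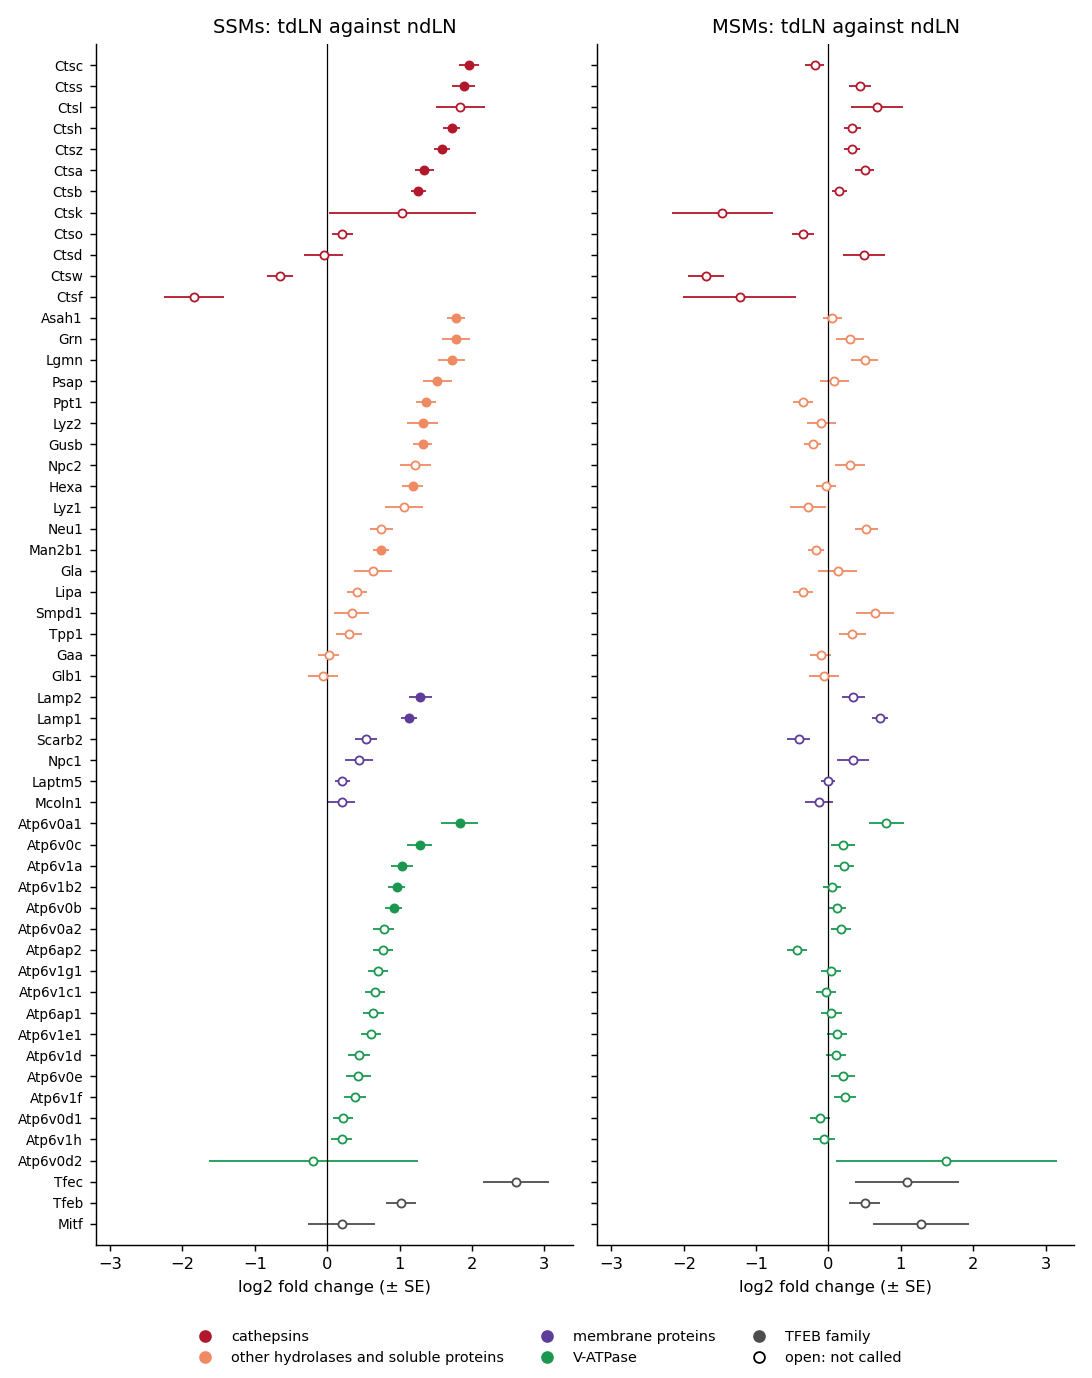
Log2 fold change of each of the 56 genes in tdLN against ndLN, in SSMs (left) and MSMs (right). Bars are 1 SE, computed from the F statistic of edgeR's test, and filled points are genes that passed both cut-offs of a call. The 22 filled points are all in SSMs and all to the right of 0, and Ctsf has the lowest value in SSMs.

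Macrophage markers rose along with the lysosomal genes in SSMs. Of 12 such markers, 7 were called higher in SSMs from tdLN, with a median log2 fold change of 1.39, and Vsig4 was at or below 3 counts in every library. Their summed level was 1909 and 2546 CPM in ndLN and 4569 and 5890 CPM in tdLN. The summed level of the 56 lysosomal genes was 9.13 and 9 times that of the macrophage markers in SSMs from ndLN and 8.83 and 8.89 times in SSMs from tdLN, so that the ratio of the sums differed little between the nodes. In MSMs the ratio was 16.66 to 18.87. Without Lyz2 and Psap it was 5.03 and 5.67 in SSMs from ndLN and 4.52 and 5.07 in SSMs from tdLN, which overlapped, and 9.80 to 11.67 in MSMs. The classes differed in this ratio. For cathepsins it went from 1.84 and 1.91 in ndLN to 2.12 and 2.35 in tdLN, whereas for the V-ATPase it went from 0.876 and 1.09 to 0.625 and 0.736, and for the membrane proteins from 1.37 and 1.63 to 0.852 and 0.963. For the other hydrolases and soluble proteins it overlapped, at 4.35 and 5.02 in ndLN and 4.81 and 5.22 in tdLN. These ratios were computed after the levels had been seen, carry no test, and include Cd68, itself a lysosomal membrane protein, among the markers.

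Markers of other cells moved in the same comparison, in which 4.19% of all genes over the mean count cut-off rose and 2.21% fell. Of 11 T cell markers, 3 were lower in SSMs from tdLN, with sums of 2611 to 2918 CPM in ndLN and 984 to 1178 CPM in tdLN, and of 10 innate-like lymphoid markers 6 were lower, with sums of 1806 to 2244 CPM and 549 to 614 CPM. Basophil and mast cell markers, with 2 of 12 lower and 1 higher, summed to 2520 and 3653 CPM in ndLN and to 429 and 867 CPM in tdLN. Monocyte markers, with 1 of 5 higher, went from 1507 and 2762 CPM to 4110 and 4424 CPM, and neutrophil markers, with 1 of 10 higher, from 80.4 and 241 CPM to 293 and 589 CPM. Conventional dendritic cell markers, with 2 of 10 higher, summed to 1896 and 2788 CPM in ndLN and 1090 and 1503 CPM in tdLN. Natural killer and cytotoxic cell markers, of which none of 10 was called, summed to 4101 and 3392 CPM in ndLN and 2127 and 3192 CPM in tdLN. No marker of these 7 lists was at or below 3 counts in every library. The part of macrophage, lymphoid, natural killer, basophil, monocyte, neutrophil and dendritic cell RNA in the rise of the lysosomal genes was not tested.

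**Figure D4:**
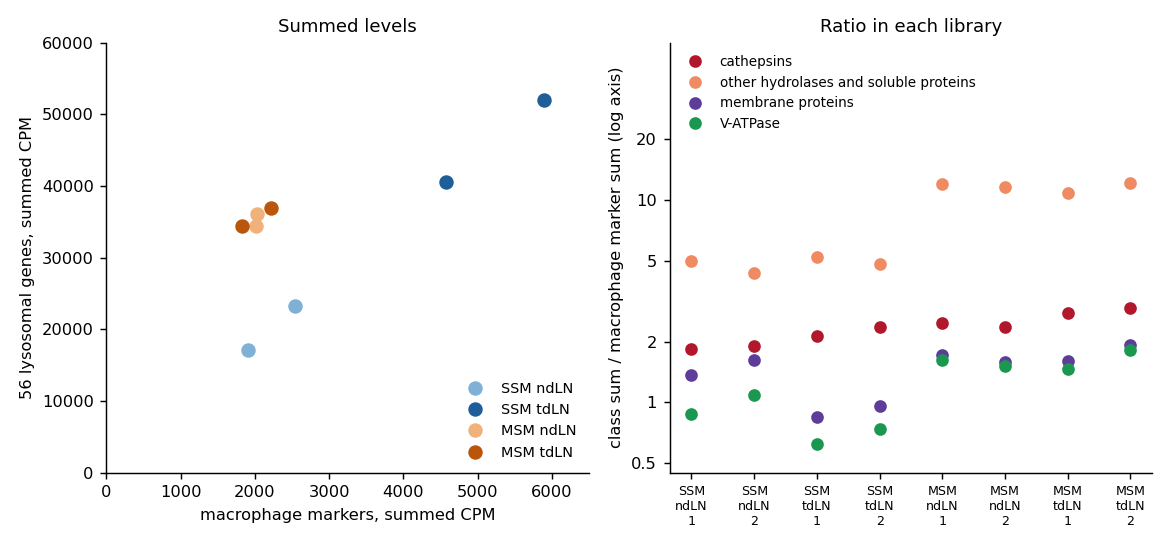
Left, summed CPM of the 56 lysosomal genes against the summed CPM of 12 macrophage markers, with 1 point per library, on axes that start at 0. Right, the sum of each of 4 classes divided by the macrophage marker sum in each library, on a log axis, which is below 1 for the V-ATPase in SSMs from tdLN (0.625 and 0.736) and above 10 for the other hydrolases in MSMs.

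The second comparison set SSMs against MSMs within each kind of node. In ndLN, 24 of the 56 genes differed, 7 higher and 17 lower in SSMs, against 12.7% of all genes higher and 12.8% lower. The median log2 fold change was -0.26 over the 56 genes and -0.06 over all genes. In tdLN, 19 of the 56 differed, 15 higher and 4 lower in SSMs, against 10.9% of all genes higher and 7.44% lower, with a median of 0.31 over the 56 genes and 0.01 over all genes. The number of calls in ndLN was 11 without pool 1 of MSMs from ndLN, 14 without pool 2 of MSMs from ndLN and 15 without pool 2 of SSMs from ndLN. In tdLN it was 5 without pool 1 of SSMs, 5 without pool 2 of SSMs, 6 without pool 1 of MSMs and 5 without pool 2 of MSMs.

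Among the 56 genes, Ppt1 had the largest difference between the subsets in ndLN and Ctsw in tdLN. Ppt1, palmitoyl-protein thioesterase, which removes fatty acids from proteins, lies on chromosome 4 at 122836242 to 122859175 and stood at 192 and 166 CPM in SSMs from ndLN, 525 and 407 CPM in SSMs from tdLN, 5769 and 4680 CPM in MSMs from ndLN, and 3809 and 4281 CPM in MSMs from tdLN. The subsets did not overlap in either node. It was 29.1-fold lower in SSMs in ndLN (-4.86 ± 0.16 SE, adjusted p = 1.44e-05) and 8.79-fold lower in tdLN (-3.14 ± 0.15 SE, adjusted p = 4.76e-05). Gusb, the beta-glucuronidase, stood at 120 and 114 CPM in SSMs from ndLN, 328 and 261 CPM in SSMs from tdLN, and 792 to 1104 CPM in MSMs, and was 8.24-fold lower in SSMs in ndLN (adjusted p = 1.82e-05) and 2.83-fold lower in tdLN (adjusted p = 2.92e-04). The lysosomal mannosidase Man2b1 was also lower in SSMs in both nodes, at 317 to 589 CPM in SSMs and 1152 to 1461 CPM in MSMs. Psap had 2480 and 1306 CPM in SSMs from ndLN, 6097 and 4526 CPM in SSMs from tdLN, and 9078 to 11140 CPM in MSMs, and was 5.2-fold lower in SSMs in ndLN (adjusted p = 2.28e-04) but missed the threshold in tdLN (adjusted p = 0.0172).

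In all, 10 of the 18 hydrolases and soluble proteins were lower in SSMs in ndLN, and 3 of 18 in tdLN. Asah1, Lyz1, Hexa, Npc2, Grn and Lipa were lower in ndLN, with log2 fold changes between -1.61 (Asah1) and -0.87 (Lipa), and did not pass in tdLN, with values between -0.18 (Npc2) and 0.43 (Grn). Whether the difference changed between the nodes is the interaction given above. Among hydrolases higher in SSMs, Neu1, the lysosomal sialidase, and Tpp1, a tripeptidyl peptidase, passed in both nodes. Neu1 was at 83.3 to 163 CPM in SSMs and 36.9 to 63.7 CPM in MSMs, and Tpp1 at 101 to 139 CPM and 35.9 to 56.4 CPM. Lyz2 and Lgmn were higher in SSMs in tdLN, by 3.89-fold (adjusted p = 7.90e-04) and 3.27-fold (adjusted p = 9.41e-04). In ndLN they were 1.46-fold and 1.4-fold higher in SSMs, with both SSM libraries above both MSM libraries, and did not pass (adjusted p = 0.1 and 0.116).

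Among the cathepsins, 4 were higher and 2 lower in SSMs in ndLN, and 7 were higher in tdLN, where the other 5 did not pass. Ctsw, known as a cathepsin of natural killer and cytotoxic T cells, stood at 11.9 and 16.1 CPM in MSMs from ndLN and 3.71 and 4.93 CPM in MSMs from tdLN, against 308 and 265 CPM and 165 and 204 CPM in SSMs. It was 20.7-fold higher in SSMs in ndLN (4.37 ± 0.21 SE, adjusted p = 2.16e-05) and 42.6-fold higher in tdLN (5.41 ± 0.24 SE, adjusted p = 3.47e-05). In the same comparisons, 9 of 10 natural killer and cytotoxic cell markers were higher in SSMs in each node, with sums of 2127 to 4101 CPM in SSMs and 208 to 298 CPM in MSMs. The part of these cells in the level of Ctsw was not tested. Ctsd stood at 282 and 264 CPM in SSMs from ndLN, 267 and 262 CPM in SSMs from tdLN, 35.7 and 62.1 CPM in MSMs from ndLN, and 82.6 and 54.9 CPM in MSMs from tdLN, and was higher in SSMs in both (2.48 ± 0.29 SE, adjusted p = 8.15e-04, and 1.94 ± 0.28 SE, adjusted p = 0.00303). Ctsf was higher in SSMs in ndLN (3.38 ± 0.48 SE, adjusted p = 0.00203), and Ctsl was higher in tdLN (2.21 ± 0.34 SE, adjusted p = 0.00413) with 13.5 to 40 CPM in the MSM libraries. Ctsa passed in both nodes, Ctsh and Ctsz were lower in SSMs in ndLN (-1.21 for each), and Ctsc, Ctss and Ctsb were higher in SSMs in tdLN.

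Of the membrane proteins, Lamp1 was higher in SSMs in ndLN (1.46-fold, adjusted p = 0.00898) and in tdLN (1.95-fold, adjusted p = 9.05e-04), and Lamp2 was higher in tdLN (2.3-fold, adjusted p = 0.00202). Of the 17 V-ATPase genes, 5 were lower in SSMs in ndLN and 12 did not pass. The 5 were Atp6v0a2, Atp6ap2, Atp6v1g1, Atp6v0e and Atp6v1d. Atp6v0a2, another isoform of the large membrane subunit, stood at 88.8 and 88.9 CPM in SSMs from ndLN, 164 and 142 CPM in SSMs from tdLN, 289 and 222 CPM in MSMs from ndLN, and 291 and 281 CPM in MSMs from tdLN, and was lower in SSMs in both nodes (-1.52 ± 0.14 SE, adjusted p = 3.20e-04, and -0.91 ± 0.14 SE, adjusted p = 0.0042). Atp6ap2, an accessory protein also known as the prorenin receptor, was at 193 and 176 CPM in SSMs and 402 and 438 CPM in MSMs from ndLN (-1.19 ± 0.14 SE, adjusted p = 7.57e-04) and overlapped between the subsets in tdLN. The only V-ATPase gene called higher in SSMs in tdLN was Atp6v0c (1.15 ± 0.17 SE, adjusted p = 0.00293). Of the 17 genes, 10 had a log2 fold change above 0 in tdLN. Both SSM libraries lay above both MSM libraries for 8 genes and below them for 5. Atp6v1g1 shares 19.2% of its 50-base windows with other annotated genes, Gm13453 among them. Of the TFEB family, Tfec was higher in SSMs in tdLN (6.29-fold, 2.65 ± 0.47 SE, adjusted p = 0.00731), and Tfeb passed in neither node.

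**Figure D5:**
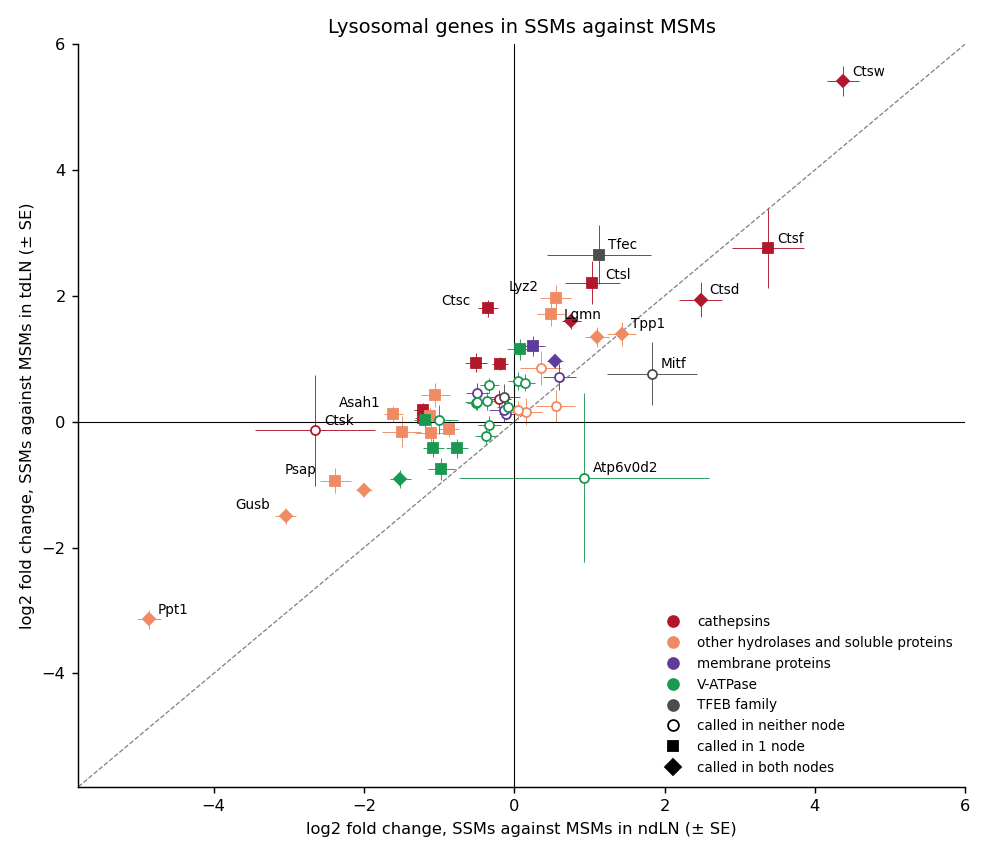
Log2 fold change of SSMs against MSMs in ndLN (horizontal) and in tdLN (vertical) for each of the 56 genes, with bars of 1 SE, the class in color and the dashed line at equal values. Ctsw lies highest (4.37 and 5.41), Ppt1 lowest (-4.86 and -3.14), and Asah1 and Psap lie to the left of 0 and above the dashed line.

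Of all genes over the mean count cut-off, 12.7% were higher and 12.8% lower in SSMs in ndLN, and 10.9% were higher and 7.44% lower in tdLN. Markers of conventional dendritic cells were higher in MSMs. Of 10 such markers, 6 were lower in SSMs in ndLN and 8 in tdLN, with sums of 1090 to 2788 CPM in SSMs and 4152 to 4783 CPM in MSMs, and the part of these cells in the levels of Ppt1, Psap and the other genes higher in MSMs was not tested. Several other marker lists had higher sums in SSMs than in MSMs of the same node. Of 5 monocyte markers, 4 were higher in SSMs in each node, with sums of 1507 to 4424 CPM in SSMs and 414 to 516 CPM in MSMs. Of 12 macrophage markers, 5 were higher and 3 lower in SSMs in ndLN and 6 were higher in tdLN. Their sums overlapped in ndLN, at 2546 and 1909 CPM in SSMs and 2022 and 2013 CPM in MSMs. In tdLN they were 5890 and 4569 CPM in SSMs and 2221 and 1823 CPM in MSMs. Of 11 T cell markers, 10 were higher and 1 lower in ndLN, and 9 were higher and 1 lower in tdLN, with sums of 984 to 2918 CPM in SSMs and 472 to 743 CPM in MSMs. The 1 lower in each node was Cd8a, by 20.3-fold in ndLN and 34.6-fold in tdLN. The T cell sums of MSMs therefore include a gene that differed in the opposite direction to most of its list. All 10 innate-like lymphoid markers were higher in SSMs in ndLN and 9 in tdLN, at 549 to 2244 CPM in SSMs and 30.9 to 64.5 CPM in MSMs. Of 12 basophil and mast cell markers, 8 were higher in ndLN, and 7 were higher and 1 lower in tdLN, at 429 to 3653 CPM in SSMs and 294 to 668 CPM in MSMs. Neutrophil markers, with 1 of 10 higher in ndLN (near the share of all genes) and 3 in tdLN, summed to 80.4 to 589 CPM in SSMs and 7.8 to 29.4 CPM in MSMs. Plasma cell markers, with 2 of 6 higher in SSMs in each node, summed to 774 to 1069 CPM in SSMs and 286 to 450 CPM in MSMs. The part of these cells in the levels of Lyz2, Ctsd and the other genes higher in SSMs was not tested. The remaining lists summed to 30.4 to 58.8 CPM for B cell markers, 183 to 300 CPM for plasmacytoid dendritic cell markers and 4.37 to 17.8 CPM for lymphatic endothelial and stromal markers over the 8 libraries.

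Lysosomal genes outside the 56 were examined as 6 further lists. Of all genes over the mean count cut-off, 4.19% rose in SSMs from tdLN compared with ndLN and 2.21% fell. Counts of 1 or 2 in a list are too few to compare with these shares and are given as description only. Of 36 other hydrolases and cofactors, 7 rose in SSMs from tdLN and 29 did not pass, with a median log2 fold change of 0.62. Ifi30, the thiol reductase that unfolds antigens in the lysosome, rose most among those called, from 141 and 83.2 CPM to 588 and 601 CPM (2.41 ± 0.25 SE, adjusted p = 0.00255). Of 26 other membrane proteins, 2 rose, 1 fell and 23 did not pass (median 0.54), with Cd68 going from 211 and 134 CPM to 591 and 504 CPM (1.68 ± 0.15 SE, adjusted p = 0.00192). Of 16 other V-ATPase subunits and assembly factors, of which 13 were tested, 2 rose (median 0.46), with Tcirg1, a further isoform of the large membrane subunit, going from 96.1 and 83 CPM to 257 and 185 CPM (1.29 ± 0.15 SE, adjusted p = 0.003).

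Genes that restrain or route lysosomal enzymes had lower medians. Of 9 cystatins and other cathepsin inhibitors, of which 7 were tested, 1 fell in SSMs from tdLN and the others did not pass (median -0.24). This was Serpinb1a, an inhibitor of serine proteases of granules, with 432 and 469 CPM in ndLN and 139 and 179 CPM in tdLN (-1.51 ± 0.20 SE, adjusted p = 0.00506). Of the 7 tested, 3 had a log2 fold change above 0. Among these was Cst3, which had the highest mean count of the list and was higher in both tdLN libraries without passing (0.88 ± 0.16 SE, adjusted p = 0.0171). The sums of the list overlapped, at 1715 and 1569 CPM in ndLN and 1479 and 1964 CPM in tdLN. Of 13 genes for sorting to the lysosome, 2 rose and 11 did not pass (median 0.25), with Cln6 the larger change (1.52 ± 0.23 SE, adjusted p = 0.00839). Of 16 genes comprising Tfe3 and its control at the lysosome, 1 rose and 15 did not pass (median 0.43), namely Fnip2, a partner of folliculin, with 4.54 and 3.21 CPM in ndLN and 17 and 13.4 CPM in tdLN (1.97 ± 0.22 SE, adjusted p = 0.00265).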

How the data were processed

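RNA of 8 sorted macrophage libraries was sequenced on 2 lanes each, 16 samples in all. The authors deposited raw counts per gene without normalization. Per the submitters' processing notes, bcl2fastq 2.20.0.422, Trimmomatic 0.36 and STAR 2.5.3a were used with GRCm38, and the strand setting is not given in the sources used here. Lanes, which differed by no more than sampling noise, were summed (42972328 to 48130352 counts per library). Genes with at least 10 counts in total and detection in at least 2 samples were scaled by TMM (edgeR 4.0.16, R 4.3.3) and fitted over all 8 libraries with group and pool as terms. Pool here is the number 1 or 2 in the labels, whereas the pool term of the study's models is numbered from 1 to 4. Contrasts were compared with the quasi-likelihood test of edgeR, and p-values were adjusted over 21085 genes by the Benjamini-Hochberg method. The SE of a log2 fold change was computed as its absolute value divided by the square root of the F statistic of this test. A call needed an adjusted p-value under 0.01 together with a mean above 100 normalized counts per lane (4.41 CPM). The fit was also run on simulated data with the same spread for every gene and no pool effect. Such a run does not show how the fit performs on these libraries. P-values rest on the spread between libraries that is left after the group and pool terms. This spread was estimated over all 4 groups together, with 2 libraries in each, and not from the groups compared alone.

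Deviations of same-numbered libraries from group means had correlations between -0.186 and 0.15. The genes and lists were chosen with earlier results of these data known. Values are given for each TFEB family, LAMP and lysozyme gene and, per class and contrast, for the 3 called genes with the largest change in the same direction in both pools. Alternatives included DESeq2 1.42.0, other filters, single lanes and leaving out each library.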

Additional observations from a re-analysis of the deposited data

How the results depend on the processing

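Among all alternatives run, 0 of the calls or fold changes of named genes that had passed reversed direction. Calls were nevertheless lost. For SSMs in tdLN against ndLN every named gene lost its call with a Holm adjustment and with only the groups compared. With each library left out in turn, the number of the 56 genes called was between 0 and 14 for SSMs in tdLN against ndLN, between 11 and 20 for SSMs against MSMs in ndLN, between 5 and 22 for SSMs against MSMs in tdLN, and 0 throughout for MSMs in tdLN against ndLN and for the interaction. Leaving out a library leaves its group with 1 sample, which is assumed to vary like the other groups.

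The low correlations between same-numbered libraries cannot decide whether these shared mice, since each group has only 2 libraries. Without pool as the replicate block the counts were 23, 23 and 19 for SSMs in tdLN against ndLN, SSMs against MSMs in ndLN and SSMs against MSMs in tdLN, and 0 for the other 2 tests.

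For SSMs in tdLN against ndLN, the count of 22 became 34 with a DESeq2 Wald test, 43 with DESeq2's likelihood ratio test on lanes, 0 with only the groups compared, 0 with a Holm adjustment and 35 at an adjusted p-value under 0.05. For SSMs against MSMs in ndLN, the count of 24 became 39 with the test on lanes, 8 with only the groups compared and 4 with Holm, and in tdLN the count of 19 became 40 with the test on lanes and 2 with Holm. For MSMs in tdLN against ndLN, the count was 2 with the Wald test, 19 with the test on lanes and 2 at an adjusted p-value under 0.05. For the interaction it was 20 with the Wald test, 33 with the test on lanes, 11 at an adjusted p-value under 0.05, 1 without a gene filter, 1 with filterByExpr, 1 with lane 3 only and 2 with lane 4 only. The test on lanes counts each lane as a sample, and the fit of only the groups compared has fewer libraries to estimate the spread. The causes of the differences between these counts were not tested. Lyz2 in SSMs from tdLN lost its call in 14 of the alternatives.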
